A study of Mus musculus with 8 samples.

Results

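The urea cycle and its ammonia supply were followed through 8 genes, Cps1, Otc, Ass1, Asl, Arg1, Nags, Glud1 and Gls2, which were taken by symbol from a table of 21532 genes. Liver RNA of male db/db mice on a C57B/6 J background was sequenced, with 1 library per mouse. These mice carry a defective leptin receptor in every cell, become obese and diabetic, and served as the model in both groups. From 8 weeks of age, 4 mice received control and 4 received AF1 peptide, each at 5 mg/kg body weight by retro-orbital injection, 2 times per week for 5 weeks. AF1 peptide is derived from estrogen receptor α and carries a TAT sequence, which lets it enter cells. What the control consisted of, and whether the mice were fed or fasted when the liver was taken, is not given in the sources used here. Lean mice are not part of the comparison.

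The urea cycle turns ammonia from amino acid breakdown into urea, mainly in hepatocytes around the portal vein. Nags makes N-acetylglutamate, the activator that Cps1 needs, and Cps1 and Otc carry out the mitochondrial steps. Ass1, Asl and Arg1 complete the cycle in the cytosol. Gls2, the liver-type glutaminase, and Glud1, glutamate dehydrogenase, release ammonia inside mitochondria, whereas Glul, glutamine synthetase of the hepatocytes around the central vein, captures the ammonia that escapes. In the normal liver the urea cycle enzymes rise with dietary protein, fasting, glucagon and glucocorticoids.

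In these livers, none of the 8 genes was called different between AF1 peptide-treated and control mice. The widest values came from a single mouse. That mouse, AF1 peptide replicate 1, had 2.43 to 2.52 times the normalized count of the next highest mouse in Cps1, Ass1, Asl and Gls2, a smaller excess in Otc, Arg1 and Nags, and no excess in Glud1. AF1 peptide replicate 3 was the lowest of the 8 mice in all 8 genes. Without replicate 1, the AF1 peptide-treated mice averaged below the control mice in all 8 genes. Of all genes, 50.8% then had a log2 difference below 0. None of the 8 differences passed a p value of 0.05 under the deposited scaling. Replicates 2 and 4 were both above the control mean in Otc, Nags and Gls2. They were both below it in Glud1 and on either side of it in the other members.

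Depth was 35260283 to 45117528 reads per mouse in the control group and 23031880 to 43978158 in the AF1 peptide group (two-sided exact permutation test, p = 0.686). Each value is a normalized count, the reads of a gene divided by 1 size factor per library. The 8 genes had 670 to 202187 reads per mouse, so that counting alone gives a coefficient of variation of 0.222 to 3.86%, against 8.55 to 32.1% between the control mice. The library of AF1 peptide replicate 1 stood apart. Its chi-square against the other 3 libraries of its group was 231 to 312 per degree of freedom, compared with 14.6 to 39.8 among those 3. Its share of mitochondrially encoded reads was 20.8%, the lowest of the 8, while the other AF1 peptide livers had 34.3 to 37.8% and control livers 22.4 to 34.3% (control against treated, p = 0.4 in a two-sided exact permutation test). Group differences are therefore given with and without it. P values measure the spread between these mice, and adjusted p values are those of limma with Benjamini-Hochberg adjustment over all genes tested.

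The start regions of the genes are shown for 3 members whose values in AF1 peptide replicate 1 differed in size, Ass1 (3.10 times the control mean), Otc (1.35 times) and Glud1 (0.964 times). RefSeq promoter windows, from 250 bases before to 50 bases after the start on GRCm38.p6, matched 4 of the 8 members. Each is on the plus strand and is written 5′ to 3′. Capitals mark the GC box, GGGCGG or its reverse complement, the binding element of Sp1-type factors. Ass1 lies at chr2:31470020-31470319, Glud1 at chr14:34310477-34310776 and Otc at chrX:10252055-10252354.
Ass1: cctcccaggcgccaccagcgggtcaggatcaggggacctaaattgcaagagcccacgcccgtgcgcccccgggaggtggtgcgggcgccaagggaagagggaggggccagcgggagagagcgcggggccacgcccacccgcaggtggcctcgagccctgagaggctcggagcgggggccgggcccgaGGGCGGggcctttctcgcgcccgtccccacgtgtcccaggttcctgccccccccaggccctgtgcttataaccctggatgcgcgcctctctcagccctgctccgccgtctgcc
Glud1: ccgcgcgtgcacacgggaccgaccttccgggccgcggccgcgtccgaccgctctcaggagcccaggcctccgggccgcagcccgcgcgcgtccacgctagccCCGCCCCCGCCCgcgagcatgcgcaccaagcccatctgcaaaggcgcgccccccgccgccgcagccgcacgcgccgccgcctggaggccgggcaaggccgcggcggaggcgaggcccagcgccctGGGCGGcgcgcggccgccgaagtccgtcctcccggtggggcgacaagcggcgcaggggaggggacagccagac
Otc: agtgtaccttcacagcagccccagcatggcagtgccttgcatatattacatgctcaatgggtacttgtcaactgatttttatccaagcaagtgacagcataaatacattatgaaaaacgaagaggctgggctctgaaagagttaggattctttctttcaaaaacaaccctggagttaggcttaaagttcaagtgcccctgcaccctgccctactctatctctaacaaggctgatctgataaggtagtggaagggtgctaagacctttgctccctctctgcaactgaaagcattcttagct

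The Ass1 window held 1 GC box, the Glud1 window 3 and the Otc window 0, and the Nags window, which is not shown, held 2. The same letters occurred on either strand in 35.7% of the 32851 promoter windows of the table. GC content was 74.0% for Ass1, 81.0% for Glud1, 57.7% for Nags and 44.3% for Otc, with a median of 52.7% over all windows. CpG dinucleotides numbered 27, 51, 14 and 1 in the same order, with a median of 7. The CRE core TGACG, which CREB binds, was in the Nags window alone of these 4 and in 20.8% of all windows. Letters for C/EBP (TTGCNNAA), the glucocorticoid receptor (TGTTCT), HNF4 (CAAAGNNCA), the CCAAT box (CCAAT) and the TATA box (TATAAA) were in none of the 4 windows and in 10.8, 19.0, 6.36, 37.4 and 13.6% of all windows. Windows of Cps1, Asl, Arg1 and Gls2 were not analysed here.

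Nags and Cps1 open the cycle. The normalized counts of Nags were 1383, 1020.2, 1043 and 1069 in control replicates 1 to 4 and 1595, 1224, 822 and 1177 in AF1 peptide replicates 1 to 4. The groups overlapped, with a treated mouse at either end. The group means of Nags were 1129 ± 170 and 1204 ± 316 (SD, n = 4 mice in either group), and the log2 difference was 0.07 (95% interval -0.34 to 0.48, limma, adjusted p = 0.953). It was -0.08 (-0.42 to 0.25, limma, adjusted p = 0.879) without AF1 peptide replicate 1. Nags overlaps Gm11586 on the other strand, which had 45.3 to 60.3 normalized counts.

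Cps1, the rate-limiting step of urea synthesis, had normalized counts of 13727, 8758, 6605 and 8653 in the control mice and 34576, 9779, 5979 and 7664 in the AF1 peptide-treated mice. Treated replicate 1 was at 3.66 times the control mean, and the other 3 treated mice lay within or below the control range. The means were 9435 ± 3028 (SD, n = 4) and 14499 ± 13474 (SD, n = 4), and the log2 difference of 0.29 had a 95% interval of -0.74 to 1.33 (limma, adjusted p = 0.906). Without AF1 peptide replicate 1 it was -0.25 (-0.74 to 0.24, limma, adjusted p = 0.717).

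Otc, which joins carbamoyl phosphate to ornithine, had normalized counts of 8766, 7708, 6738 and 5840 in control mice and 9770, 8654, 4013 and 8176 in AF1 peptide-treated mice. Here replicate 1 exceeded the next highest mouse, control replicate 1, by a factor of only 1.11. The means were 7263 ± 1259 and 7653 ± 2517 (SD, n = 4), and the log2 difference was 0.02 (95% interval -0.55 to 0.58, limma, adjusted p = 0.993), or -0.13 (-0.65 to 0.39, limma, adjusted p = 0.879) without replicate 1. The ratio of Cps1 to Otc normalized counts was 3.54 in AF1 peptide replicate 1 and 0.937 to 1.57 in the other 7 mice, so that this liver held more Cps1 RNA for its Otc RNA than any other.

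**Figure D1:**
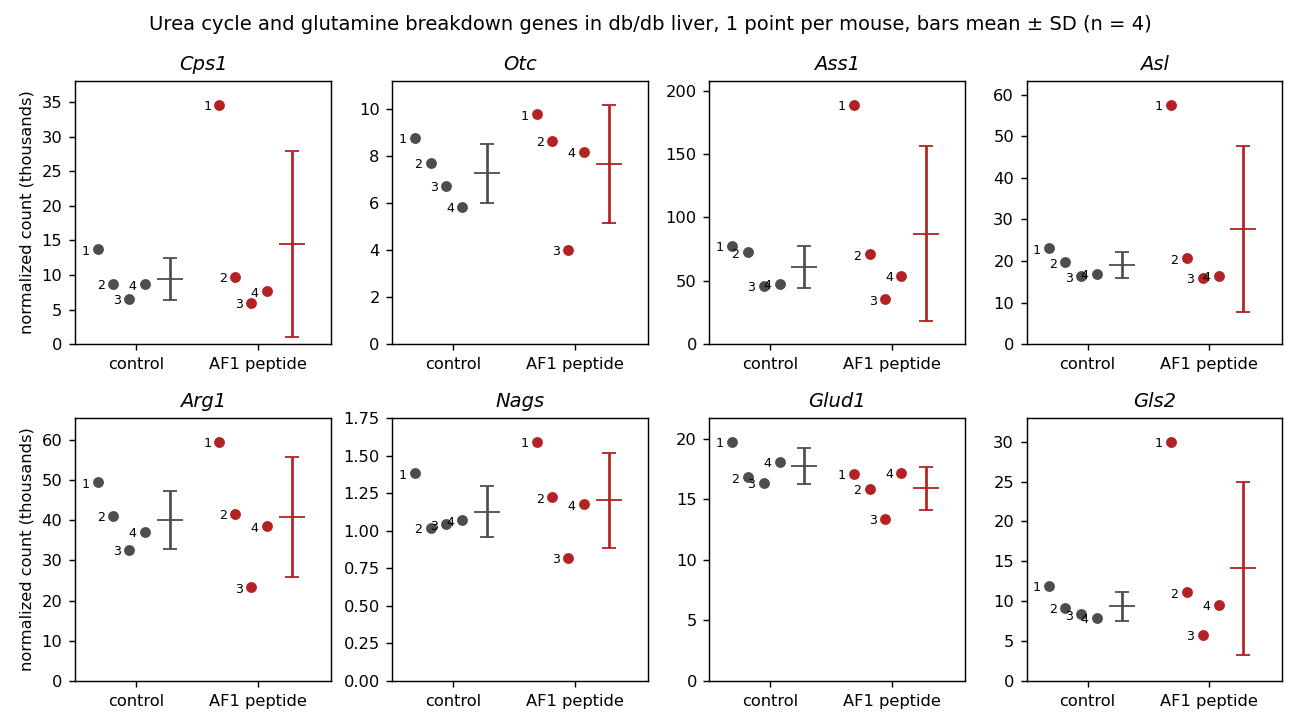
Normalized counts divided by 1000 (vertical axes, each starting at 0) of the 8 genes in control (grey) and AF1 peptide-treated (red) db/db livers, 1 numbered point per mouse, with bars for mean ± SD (n = 4). AF1 peptide replicate 1 stands far above the rest in Cps1 (34576), Ass1 (188675), Asl (57546) and Gls2 (30000.4), and AF1 peptide replicate 3 is lowest in every panel.

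In the cytosolic enzymes too, AF1 peptide replicate 1 was the highest mouse and AF1 peptide replicate 3 the lowest. Ass1, which condenses citrulline with aspartate, had normalized counts of 77767, 72349.6, 46110.3 and 47452 in control mice and 188675, 70774, 35537 and 54022 in AF1 peptide-treated mice. Replicate 1 of the treated mice held 2.43 times the value of control replicate 1, the next highest, and the remaining mice of the groups overlapped. The group means of Ass1 were 60919.9 ± 16484 and 87252 ± 69130 (SD, n = 4), a log2 difference of 0.26 (95% interval -0.72 to 1.25, limma, adjusted p = 0.912) that became -0.20 (-0.78 to 0.37, adjusted p = 0.812 by limma) without replicate 1. Of the 50-base words of the Ass1 transcript, 55.3% are also in Gm5424, a gene of near-identical sequence, so that reads could have been split between them. Gm5424 had 9.19 to 11.4% of the Ass1 normalized count in each mouse and was likewise highest in AF1 peptide replicate 1 (18155, against 4054 to 7551 in the other 7).

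Asl, which cleaves argininosuccinate into arginine and fumarate, had normalized counts of 23079.7, 19662, 16339 and 16922 in control mice and 57546, 20685, 15966 and 16503 in AF1 peptide-treated mice. Apart from replicate 1, at 3.03 times the control mean, replicates 2 and 4 lay within the control range and replicate 3 just below it. The means were 19001 ± 3081 and 27675 ± 20025 (SD, n = 4), and the log2 difference was 0.33 (95% interval -0.46 to 1.13, limma, adjusted p = 0.854). Without replicate 1 it was -0.10 (-0.43 to 0.23, limma, adjusted p = 0.852).

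Arg1, the arginase that releases urea, had normalized counts of 49500.1, 41146, 32591 and 37156 in control mice and 59595, 41674, 23271 and 38480 in AF1 peptide-treated mice. The highest and the lowest value again belonged to AF1 peptide replicates 1 and 3, and the groups overlapped. With means of 40098 ± 7177 and 40755 ± 14907 (SD, n = 4), the log2 difference was -0.04 (95% interval -0.63 to 0.55, limma, adjusted p = 0.985) and became -0.25 (-0.72 to 0.22, limma, adjusted p = 0.709) without replicate 1. The ratio of Ass1 to Arg1 normalized counts was 3.17 in AF1 peptide replicate 1 and 1.28 to 1.76 in the other 7 mice.

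Gls2 and Glud1, both of which feed ammonia to Cps1, parted in AF1 peptide replicate 1. Gls2 normalized counts were 11913, 9161, 8375 and 7915 in control mice and 30000.4, 11096, 5788 and 9571 in AF1 peptide-treated mice. Replicate 1 was at 3.21 times the control mean, replicates 2 and 4 lay within the control range, and replicate 3 lay below it. The means were 9341 ± 1790 and 14114 ± 10824 (SD, n = 4), with a log2 difference of 0.34 (95% interval -0.55 to 1.23, limma, adjusted p = 0.865) and of -0.12 (-0.57 to 0.34, adjusted p = 0.873 by limma) without replicate 1. Gls2 overlaps Spryd4 on the other strand, whose normalized counts were 439.9 to 687.7.

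Glud1 normalized counts were 19762, 16814, 16377 and 18084 in control mice and 17126, 15879, 13392 and 17207 in AF1 peptide-treated mice. In Glud1, replicate 1 of the treated mice lay inside the control range, and 2 of the 4 treated mice were below every control mouse. Glud1 had the narrowest interval of the 8 genes, with means of 17759 ± 1519 and 15901 ± 1780 (SD, n = 4) and a log2 difference of -0.16 (95% interval -0.45 to 0.12, limma, adjusted p = 0.811). Without replicate 1 it was -0.20 (-0.48 to 0.08, limma, adjusted p = 0.610). Of its 50-base words, 8.17% are shared with Glud-ps and Gm43444.

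All 8 genes passed the filter on low values, which asked for an average of 10 normalized counts or more, and 0 of 8 had an unadjusted p value under 0.05 in limma, in either direction, and 0 of 8 in edgeR and in DESeq2. Over all 15989 genes tested, 6.19% had such a p value. Calls that also needed more than 1.3-fold change made up 1.79% of genes on the higher and 1.90% on the lower side. The groups overlapped in each of the 8 genes, while they did not overlap in 3.90% of all genes. Adjusted p values of the 8 genes (limma) ran from 0.811 to 0.993, and the smallest of any gene in the same limma fit was 0.763. On the recovered reads, edgeR gave larger log2 differences for Cps1 (0.61), Ass1 (0.51), Asl (0.54) and Gls2 (0.59). The log2 difference was above 0 in 6 of 8 members under the deposited scaling and in 4 of 8 when libraries were scaled to equal totals, against 48.2% of all genes under the deposited scaling.

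Without AF1 peptide replicate 1, 0 of 8 members had an unadjusted p value under 0.05 (limma), when 10.1% of all genes had one. All 8 log2 differences were then below 0 under each of the 4 scalings tried, compared with 50.8% of all genes under the deposited one and 76.5% under equal totals. Their median was -0.16, and -0.0036 over all genes. Scaling to equal totals, chosen in this combination after seeing the data, moved the median of all genes to -0.157 and gave unadjusted limma p values of 0.0478 for Arg1 and 0.0198 for Glud1 (adjusted 0.342 and 0.301), both lower in the treated mice, where 14.4% of all genes had a p value under 0.05. In whole liver, fewer cells of a type and less RNA per cell cannot be told apart.

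**Figure D2:**
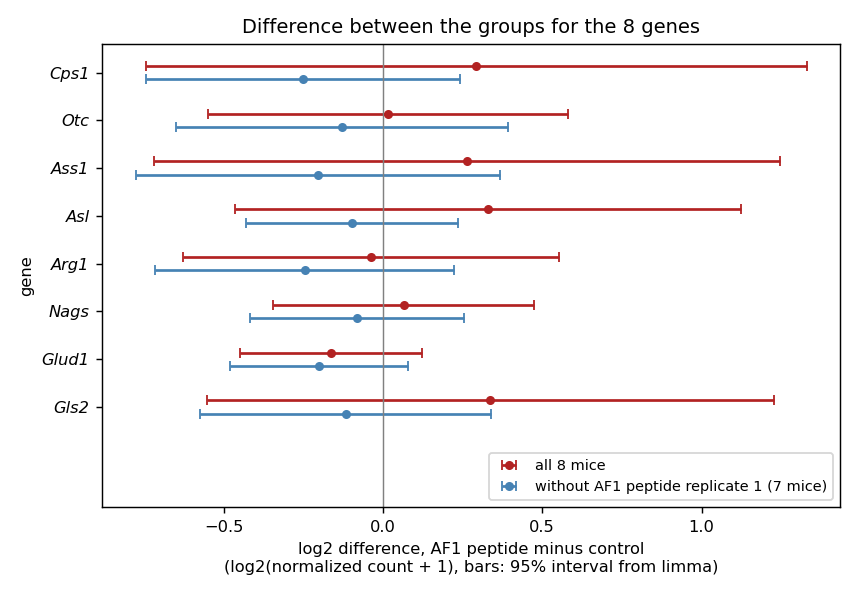
Log2 difference between AF1 peptide-treated and control mice (horizontal axis) for each gene, from log2(normalized count + 1), as points with 95% intervals from limma, over all 8 mice (red) and without AF1 peptide replicate 1 (blue). Every interval crosses 0, and the blue points, from -0.25 (Cps1) to -0.08 (Nags), all lie below 0.

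Across the mice, the extremes of the 8 genes often fell on the same animals. AF1 peptide replicate 1 was the highest mouse in 7 of 8 members and in 25.9% of all genes, and it was over 2 times the next mouse in 4 of 8 members and in 1.25% of all genes. AF1 peptide replicate 3 was the lowest in 8 of 8 members (7 of 8 when libraries were scaled to equal totals, with or without mitochondrial genes) and in 17.9% of all genes. Among the control mice, replicate 1 was the highest in 8 of 8 members and in 23.2% of all genes. Leaving out AF1 peptide replicate 1, the highest mouse had 1.45 (Asl) to 2.30 times (Cps1) the value of the lowest. The median SD of log2 values was 0.25 in control and 0.73 in AF1 peptide-treated mice for the members, and 0.19 and 0.26 for all genes.

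Over the 8 mice, Pearson's r between members, on the log2 scale, was positive in all 28 pairs, from 0.247 (Asl and Glud1) to 0.977 (Cps1 and Asl), with a median of 0.869. Without AF1 peptide replicate 1 the 28 values ran from 0.546 to 0.969, with a median of 0.857, and the highest was that of Otc and Gls2. These points share libraries and size factors, and the correlations are descriptions over 8 and 7 mice. Pairs of other genes were not correlated for comparison. Among 3247 other genes that averaged 1000 normalized counts or more, those most like the mean profile of the members were Serpinf1 (r = 0.991), Gchfr (0.986), Ugt2a3 (0.985), Acadsb (0.983) and Larp1b (0.981). Their r without replicate 1 was 0.960 to 0.980.

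**Figure D3:**
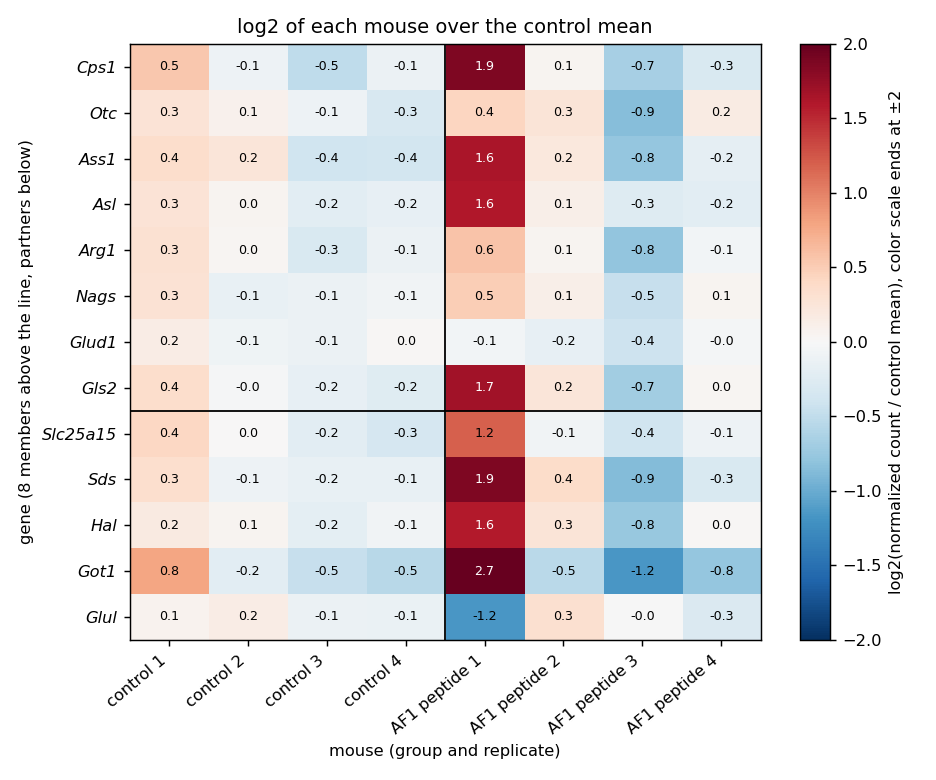
Log2 of each mouse's normalized count over the control mean (color and printed value, color scale ending at ±2) for the 8 members and, below the line, 5 related genes, with mice in columns. Of the related genes, Sds, Hal and Got1 were chosen after their values were seen. AF1 peptide replicate 1 ranges from -0.05 in Glud1 to 1.87 in Cps1 among the members and is at -1.17 in Glul, and AF1 peptide replicate 3 is below 0 in every member.

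Per kilobase of transcript, control livers held most RNA of the cytosolic enzymes. Normalized counts per kilobase were 35920 ± 9719 for Ass1, 27149 ± 4859 for Arg1 and 7874 ± 1277 for Asl (control mean ± SD, n = 4). Then came Glud1 (5239 ± 448), Gls2 (3630 ± 696), Otc (3132 ± 543), Cps1 (1699 ± 545) and Nags (557 ± 84.1), on the same scale. The control ranges of neighbours in this order overlapped for Ass1 with Arg1 and for Gls2 with Otc, and did not overlap for the other neighbours. In AF1 peptide replicate 1 the 8 genes made up 1.54% of the normalized counts outside the mitochondrial genome, compared with 0.440 to 0.782% in the other 7 mice.

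The direct partners of the members did not move as 1 block. Glul normalized counts were 18434, 19479.6, 16132 and 15916 in control mice and 7792, 21914, 17439 and 14389 in AF1 peptide-treated mice. AF1 peptide replicate 1, the highest in Gls2, was thus the lowest in Glul, and its ratio of Gls2 to Glul was 3.85, against 0.332 to 0.665 in the other 7 mice. The log2 difference of Glul was -0.28 (limma, adjusted p = 0.839) and 0.02 without replicate 1 (limma, adjusted p = 0.974). Slc25a15, the ornithine carrier of the inner mitochondrial membrane, had 9700 normalized counts in replicate 1 and 3214 to 5673 in the others (log2 difference 0.18, limma, adjusted p = 0.913), and without replicate 1 its difference was -0.16 (limma, adjusted p = 0.750). Arg2, the mitochondrial arginase, was below the filter at 1.08 to 9.13 normalized counts.

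Beyond the members, 7 lists of related genes held 84 genes, of which 81 were in the table and 76 were tested. Of these, 1 had an unadjusted p value under 0.05 in limma, where 6.19% of all genes did. It was Crtc2, a CREB coactivator of the fasting response. Its normalized counts were 1331, 1075, 1327 and 1187 in control mice and 2339, 1534, 1443 and 1389 in AF1 peptide-treated mice, so that the groups did not overlap. The log2 difference of Crtc2 was 0.42 (limma, adjusted p = 0.763) and 0.25 without replicate 1 (limma, adjusted p = 0.485). AF1 peptide replicate 1 was the highest mouse in 46 of the 76 genes and in 25.9% of all genes tested.

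By list, 0 of 9 carriers and mitochondrial partners, 0 of 8 genes of glutamine synthesis and glutamine or ammonia transport and 0 of 18 genes of transamination and ornithine or arginine use had an unadjusted p value under 0.05 (limma). The smallest p values belonged to the deacylases Sirt3 (log2 difference 0.17, and 0.07 without replicate 1) and Sirt5 (-0.15, and -0.09 without it). In the next list they were the glutamine transporters Slc38a2 (0.44 and 0.02) and Slc38a3 (0.32 and 0.09), given in the same way. In the third list they were Prodh (0.52 and 0.25), which begins proline breakdown, and Gatm (-0.33 and -0.12), which starts creatine synthesis. Slc38a2 shared with Cps1 the excess in AF1 peptide replicate 1, with 5525 normalized counts there and 1503 to 1963 in the other mice. Unlike in Cps1, AF1 peptide replicate 3 (1855) was not the lowest mouse. Among 12 genes of ammonia release from other amino acids and 8 of fumarate and aspartate return and urea export, 0 passed, and the smallest p values were those of Aspg (0.23, and 0.32 without replicate 1), Asrgl1 (-0.17 and -0.14), Aqp7 (-0.81 and -0.22) and Adssl1 (0.29 and 0.01). Of 11 regulators of urea cycle transcription 1 passed, Crtc2, and of 12 genes of the fasting and glucagon response 0 passed, with Ppargc1a (0.46, and 0.15 without replicate 1) and Pdk4 (-0.55 and -0.07) closest.

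Several amino acid enzymes, chosen here after their values were seen, lay further above the control mean in AF1 peptide replicate 1 than any member. Got1, the cytosolic aspartate transaminase, had 21908 normalized counts there (6.36 times the control mean) and 1533 to 5937 in the other 7 mice. Tat, which begins tyrosine breakdown, had 68707 (4.70 times) against 6311 to 23826, and Cth, which cleaves cystathionine, had 14656 (5.35 times) against 920.2 to 3640. Sds (41260.1 against 6193 to 14694) and Hal (11546 against 2277 to 4599), which free ammonia from serine and histidine, were at 3.64 and 3.00 times the control mean, within the range of the members. Lower in that liver than in any other mouse were Fgf21, a hormone of the fasting liver, with 81.2 normalized counts against 470 to 1209, and Cidec, a lipid droplet protein, with 243 against 3542 to 4768. Fgf21 does not stand for the fasting and glucagon response list. Replicate 1 was the highest mouse in 7 of its 12 genes and the lowest in 4, against 25.9% and 23.4% of all genes tested.

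Without AF1 peptide replicate 1, 10 of the 76 related genes had an unadjusted p value under 0.05 in limma, with 2 higher and 8 lower, where 10.1% of all genes had one. Over all 15989 genes, 732 were higher and 876 lower at that p value. Of the related genes, the 2 higher were Crtc2 and the asparaginase Aspg (log2 difference 0.32). Lower were Tat (-0.74), Got1 (-0.72), the glucose-6-phosphatase G6pc (-0.63), the cationic amino acid transporter Slc7a2 (-0.44), the malate dehydrogenases Mdh1 (-0.43) and Mdh2 (-0.36), the glutamate carrier Slc25a22 (-0.39) and the transcription factor Cebpb (-0.28). The smallest adjusted p value of any gene in this comparison was 0.452 (limma, Benjamini-Hochberg).

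**Figure D4:**
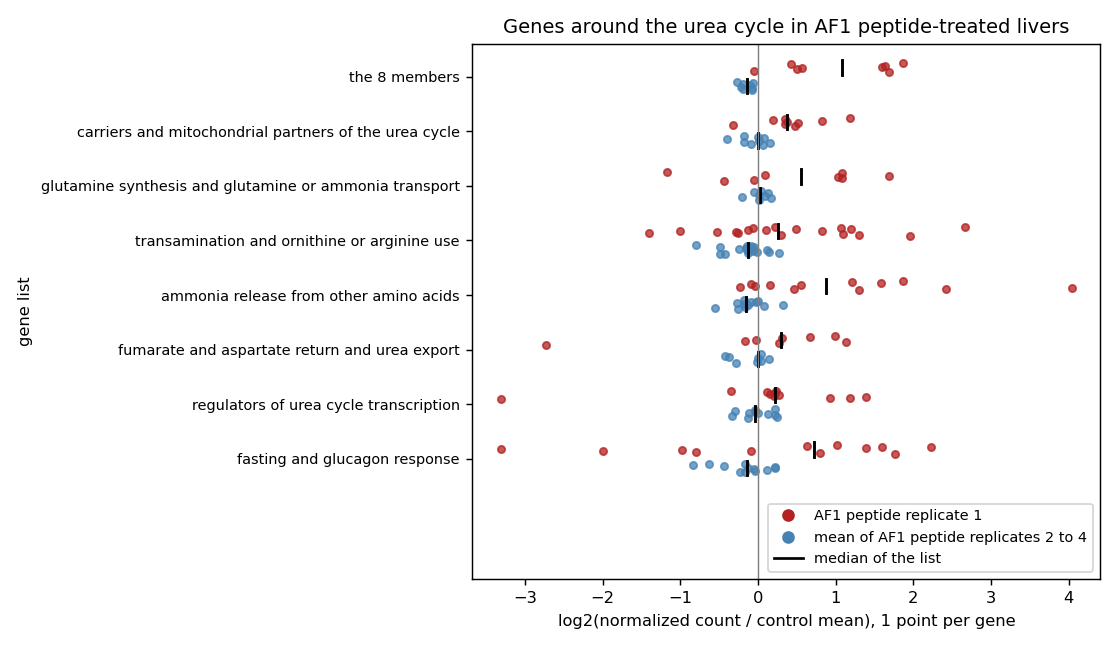
Log2 of the normalized count over the control mean (horizontal axis, 1 point per tested gene) for the 8 members and 7 related lists, in AF1 peptide replicate 1 (red) and as the mean of AF1 peptide replicates 2 to 4 (blue), with black bars for list medians. The members have a median of 1.09 in replicate 1 and -0.14 in replicates 2 to 4, and the list of ammonia release from other amino acids has 0.88 and -0.15.

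The livers were checked against cell type markers. Of the 8 hepatocyte markers 7 were in the table, and their summed normalized count was 2458770 to 2573190 in control mice, 2135180 to 2568530 in AF1 peptide replicates 2 to 4 and 1688450 in replicate 1. Most of this sum was Alb (1224160 in replicate 1). Replicate 1 was the lowest mouse in 4 of the 7 markers and the highest in 3. Over all genes tested, replicate 1 was the lowest mouse in 23.4% and the highest in 25.9%. Summed periportal markers (10 genes, Sds and Hal among them) were 108488 in replicate 1, compared with 53756 to 61038 in control and 46503 to 71699.5 in the other treated mice, and replicate 1 was the highest mouse in 4 of the 10 and the lowest in 1. Most of this sum in replicate 1 was Sds (41260.1), Hal (11546) and Etnppl (11403). Cyp2f2, at 10514, was within the range of the other 7 mice (9462 to 19420). Summed pericentral markers (12 genes, Glul among them) were also highest in replicate 1, at 243984 against 117236 to 209976 in control mice, and replicate 1 was the lowest mouse in 5 of the 12 and the highest in 4. Most of that sum in replicate 1 was Cyp2e1 (117704), Oat (48817) and Rnase4 (41476), each highest there. All 10 Kupffer cell and macrophage markers were present, and replicate 1 was the lowest mouse in 9 of them, with a sum of 2844 against 6214 to 7772 in control and 6769 to 7484 in the other treated mice. Of 6 kidney tubule markers 1 was in the table, at 0 to 15.6 normalized counts. The part of these differences in the values of the 8 genes was not tested.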

How the data were processed

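RNA-Seq was performed on liver of 4 control and 4 AF1 peptide-treated db/db mice from stranded mRNA libraries, 1 per mouse. The authors trimmed reads with Trim Galore 0.6.7, aligned them with HISAT2 (build mm39, per the submitters' processing notes), sorted them with SAMtools 1.17, assigned them to genes with GenomicAlignments and deposited 1 normalized count (a signal) for each gene in each mouse. The annotation, the use of strand and the normalization tool are not given in the sources used here. Multiplied by the size factor of its library, every deposited value gave whole reads (100% of 172256 values within 0.01), and these factors were the median-of-ratios ones. Depth was 23031880 to 45117528 reads per mouse. Groups came from the labels, which name no batch. Chi-square statistics between replicates of a group were 14.6 to 312 per degree of freedom, so that no library was a duplicate.

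Groups were compared on log2(normalized count + 1) by limma 3.58.1 (R 4.3.3), with variances following the intensity trend, over 15989 genes with a mean of at least 10. A call was an unadjusted p value under 0.05, with more than 1.3-fold change for counts over all genes, and p values were adjusted by Benjamini-Hochberg over all genes tested. Fold changes on this scale understate those of low genes. The scripts were tested on simulated data. Alternatives were pseudocounts of 0.5 and 5, no filter, at least 10 in every mouse, TMM scaling, equal totals with and without the 13 mitochondrial genes, no trend, each gene's own variance, the replicate number as a block, no fold threshold, recovered reads in edgeR 4.0.16 and in DESeq2 1.42.0, and each mouse left out. Every scaling with AF1 peptide replicate 1 left out was added after seeing the data.

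The members, the lists of related genes and the markers were chosen with earlier results of these data known. Named were the members, Glul, Arg2 and Slc25a15 (1 further partner is not reported here), in each list the genes with an unadjusted p value under 0.05 or otherwise the 2 smallest, and the 5 genes of most similar profile. Other named genes were chosen after their values were seen. Transcript lengths, shared 50-base words and overlapping genes came from GENCODE M21, using the longest transcript with a RefSeq record, and promoters from RefSeq GRCm38.p6. Both are on another build than the deposited table, so that positions are given for the promoters alone.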

Additional observations from a re-analysis of the deposited data

Results flagged for a closer look

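In 11 of 70 groups of 4 mice examined, the highest mouse stood so far from the nearest of the others that the gap, divided by the range of the group, exceeded Dixon's 95% critical value for groups of that size. Chance gives about 1 in 20 independent groups, or 3.5 of 70. These groups were not independent, since the members vary together and the ratios reuse them. Other genes were picked by p value or by likeness to the members. The count of 11 therefore cannot be set against 3.5. In 8 of the 11 the mouse was AF1 peptide replicate 1. Among the members these were Cps1 (gap over range 0.867, 34576 normalized counts against 5979 to 9779 in the other treated mice) and Asl (0.887, 57546 against 15966 to 20685). Of the related genes, Slc25a15 (0.872), Sirt3 (0.876), Slc38a2 (0.918) and Crtc2 (0.847) were highest in the same mouse. Its ratio of Gls2 to Glul (0.905) and of Ass1 to Arg1 (0.833) also stood apart.

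Of the control mice, replicate 1 stood apart in Nags (0.864, 1383 normalized counts against 1020.2 to 1069) and in reads per library (0.857, 45117528 against 35260283 to 36673520). Control replicate 3 was far from the others in Pdk4 (0.847, 297 against 244 to 252). The cause of these values was not tested.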

How the results depend on the processing

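The count of members called was 0 of 8 under each of 20 alternatives, in which the smallest member p value was 0.0792 (Otc, leaving out AF1 peptide replicate 3, limma). Of 96 member differences under settings other than leaving out a mouse, 92 kept their sign and their side of the threshold. The others changed sign: Otc (-0.076) and Nags (-0.025) under equal totals, and Arg1 with edgeR (0.0199) and DESeq2 (0.0234). With 1 mouse left out in turn, 52 of 64 did so, and the log2 difference ranged from -0.25 to 0.59 for Cps1, -0.13 to 0.30 for Otc, -0.20 to 0.60 for Ass1, -0.10 to 0.52 for Asl, -0.25 to 0.21 for Arg1, -0.082 to 0.24 for Nags, -0.12 to 0.67 for Gls2 and -0.20 to -0.08 for Glud1. The lowest value came without AF1 peptide replicate 1 in each member but Glud1, where it came without AF1 peptide replicate 4. Over all genes, 286 were called higher and 304 lower. These counts were 435 and 459 with no filter, 122 and 602 under equal totals (16.9% of calls higher in place of 48.5%), and 506 and 484 with no fold threshold, and 197 were lower with each gene's own variance. With 1 mouse left out they were 198 to 457 higher and 173 to 491 lower, with 457 and 491 without AF1 peptide replicate 1 and 173 lower without control replicate 2. edgeR called 344 and 283, and DESeq2 called 342 and 278. In DESeq2, 3 genes had an adjusted p value under 0.05, the smallest being 0.000996. Using replicate number as a block called 341 genes higher and 392 lower, and 0 members. Same-numbered mice correlated at -0.064 to 0.235, with a mean of 0.103, against -0.034 for mice of different numbers. The mean profile of the members was highest in replicate 1 and lowest in replicate 3 of both groups. With the block, the unadjusted limma p value of Cps1 was 0.262 in place of 0.544, and the smallest of any member was 0.203. The main comparison did not pair the mice, and whether the numbers stand for pairs was not tested. Depth was no limit for the members, whose counting error was below the spread between mice.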

Other observations

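Markers of other cell types were measured in the same livers. AF1 peptide replicate 1 was the lowest mouse in 23.4% of all genes tested, the share to set beside the marker counts that follow. The summed normalized count in AF1 peptide replicate 1 was below that of every other mouse for endothelial cells (7277 against 7500 to 9591), where it was the lowest mouse in 3 of 8 tested markers, and for stellate cells and fibroblasts (3470 against 3998 to 7502), where it was the lowest in 4 of 8. The cholangiocyte sum was also lowest there (804 against 1193 to 2293), but most of it was Spp1 (667 against 1048 to 2079), and replicate 1 was the lowest in 1 of 5 tested markers. Red blood cell markers summed to 27127 against 34179 to 123473, with replicate 1 the lowest in 3 of 6. Intestine epithelium markers summed to 5118 against 8679 to 10954, nearly all from Lgals4 and Fabp2, the 2 in which it was the lowest. The adipocyte sum (693 against 4371 to 5570) differed almost wholly through Cidec, whose low value is given above, while Fabp4 was 444 against 482 to 884 and the defining markers Adipoq, Lep and Plin1 were not in the table used here. Lymphocyte markers (106 against 105 to 189) and pancreas acinar markers (207 against 181 to 250) were within the range of the other 7 mice.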
